A study of Mus musculus with 12 samples.

Results

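Type I interferon-stimulated antiviral genes are described here in sorted and cultured cells of mouse bone marrow, as 45 genes chosen by symbol from a list of known members of this response. All 45 were found among the 24062 gene symbols of each deposited file, and all 45 passed the filter on low counts that left 15163 genes for testing. Irf3 and Irf7, which belong to the same response, were left out because they were introduced into 1 of the groups.

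RNA was sequenced in 12 libraries, 3 in each of 4 groups, all from the C57BL/6J strain. GFPneg and GFPpos were cells taken straight from digested marrow by sorting, gated against CD45 (blood cells), Ter119 (the red cell lineage) and CD31 (vessel lining), and parted by whether the Scf-GFP reporter of stem cell factor was off or on. The cultured groups were grown from sorted Scf-GFP-positive stroma in alpha-MEM with 20% fetal bovine serum and 10 ng/ml basic FGF. The control group was stroma transduced with a control vector, and rMSC (revitalized mesenchymal stromal cells) was stroma transduced with 5 genes together, Klf7, Ostf1, Xbp1, Irf3 and Irf7. Both cultured groups therefore share transduction and culture, and the effect of Irf3 or Irf7 cannot be told apart from that of the other 3 genes. Whether libraries of one group stem from different animals or culture dishes is not given in the labels, and the p-values therefore reflect no more than how these libraries vary. The age of the animals and the construction of the reporter are not given in the sources used here, and no culture without a vector was analysed here.

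Interferon-beta and the interferon-alphas bind the receptor IFNAR1-IFNAR2, whose kinases JAK1 and TYK2 phosphorylate STAT2. STAT2 and IRF9 act in the complex ISGF3, which binds interferon-stimulated response elements in front of its target genes. IRF3 and IRF7 are activated downstream of sensors of foreign RNA and DNA, induce the interferon genes, and can bind such elements themselves. The target genes hold antiviral effectors, such as RNA-binding Ifit proteins and the oligoadenylate synthetases, and regulators that raise or limit the response, such as STAT2, IRF9 and USP18.

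Depth ran from 60507051 to 85353566 counts, with 13639 to 15461 genes detected per library. Levels are in CPM, the usual scaling of counts to library size, here with TMM factors, and means are given with SD over 3 libraries. Log2 fold changes are given with SE and a p-value adjusted over all 15163 genes (edgeR quasi-likelihood test), and a change was called under an adjusted p of 0.05. Summed over 8 stromal markers, GFPpos libraries held 161063 to 206287 CPM, control libraries 55939 to 57453 CPM, rMSC libraries 14055 to 14249 CPM, and the 3 GFPneg libraries 44.5, 2.16 and 4.85 CPM. Stromal markers were thus near absent from GFPneg, and 9 erythroid markers summed to 6209 to 6648 CPM there. In GFPpos the erythroid markers summed to 1826, 1436 and 996 CPM. The fresh groups were noisier than the cultures: the median coefficient of variation of the 45 genes, over those with at least 10 counts, was 20.1% in GFPpos and 8.81% in GFPneg against 5.26% in control and 3.72% in rMSC. For all genes with as many counts it was 18.7% in GFPpos, 7.39% in GFPneg, 5.64% in control and 5.70% in rMSC.

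Both introduced interferon regulatory factors were higher in the libraries labelled rMSC. Irf3 stood at 21.2, 20.0 and 19.9 CPM in the control libraries and at 479, 485 and 481 CPM in rMSC (log2 fold change 4.56 ± 0.08, adjusted p = 4.74e-10). Irf7 stood at 80.2, 79.5 and 74.0 CPM in control and at 267, 249 and 235 CPM in rMSC (log2 fold change 1.69 ± 0.10, adjusted p = 2.74e-07). In neither gene did the groups overlap, and reads of the introduced and the endogenous copy cannot be told apart. In the fresh groups Irf3 stood at 40.9, 40.1 and 38.7 CPM in GFPneg and 38.6, 44.97 and 47.1 CPM in GFPpos, and Irf7 at 31.5, 27.6 and 24.4 and 40.6, 43.9 and 47.6 CPM.

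The core of the response element (GAAA, then 2 of any base, then GAAA) was searched on both strands in the RefSeq promoter windows of the GRCm38.p6 build, which run from 250 bases before to 50 bases after a listed start. Windows were listed for 34 of the 45 genes. Of these, 14 (41.2%) held the motif, against 1079 of 27025 genes (3.99%). With the short form GAAANNGAA, which includes every match to the longer motif, the shares were 18 of 34 (52.9%) and 9.76%. The 6 windows printed here belong to the genes of the 4 largest changes in rMSC (Oas1g, Ifit1, Oas1a and Ifit3), to Isg15, the ubiquitin-like modifier of the response, and to Rsad2, which carries the motif and was not called. Each run is the 250 bases before the start, 5′ to 3′ on the strand of the gene, with the motif in capitals. A match on the other strand reads TTTC, 2 of any base, TTTC.

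Ifit1, chr19:34640639-34640888, plus strand: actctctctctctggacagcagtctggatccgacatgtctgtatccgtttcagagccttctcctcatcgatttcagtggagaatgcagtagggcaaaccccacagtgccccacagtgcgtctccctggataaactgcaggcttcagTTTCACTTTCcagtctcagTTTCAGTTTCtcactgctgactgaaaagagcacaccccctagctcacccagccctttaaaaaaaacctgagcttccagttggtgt
Ifit3, chr19:34583279-34583528, plus strand: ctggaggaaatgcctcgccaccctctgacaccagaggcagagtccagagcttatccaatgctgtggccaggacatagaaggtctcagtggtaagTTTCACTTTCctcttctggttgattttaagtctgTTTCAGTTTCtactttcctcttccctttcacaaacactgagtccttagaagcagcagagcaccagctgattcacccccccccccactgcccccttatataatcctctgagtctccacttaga
Oas1g, chr5:120887614-120887863, minus strand: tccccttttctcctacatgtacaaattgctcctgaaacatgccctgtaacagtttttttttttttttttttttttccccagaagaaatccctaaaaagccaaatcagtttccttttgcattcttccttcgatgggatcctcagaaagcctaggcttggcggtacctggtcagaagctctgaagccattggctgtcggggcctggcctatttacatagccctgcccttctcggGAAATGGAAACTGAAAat
Oas1a, chr5:120907526-120907775, minus strand: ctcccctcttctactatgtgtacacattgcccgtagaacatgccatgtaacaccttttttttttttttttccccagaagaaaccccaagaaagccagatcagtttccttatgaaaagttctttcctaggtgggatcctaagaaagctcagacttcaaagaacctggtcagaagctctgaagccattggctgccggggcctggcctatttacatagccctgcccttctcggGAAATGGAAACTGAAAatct
Isg15, chr4:156200819-156201068, minus strand: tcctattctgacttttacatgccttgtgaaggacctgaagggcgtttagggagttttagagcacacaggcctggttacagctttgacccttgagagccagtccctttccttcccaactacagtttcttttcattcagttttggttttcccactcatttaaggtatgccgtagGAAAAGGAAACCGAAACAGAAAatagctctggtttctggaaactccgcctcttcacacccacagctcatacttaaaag
Rsad2, chr12:26456453-26456702, minus strand: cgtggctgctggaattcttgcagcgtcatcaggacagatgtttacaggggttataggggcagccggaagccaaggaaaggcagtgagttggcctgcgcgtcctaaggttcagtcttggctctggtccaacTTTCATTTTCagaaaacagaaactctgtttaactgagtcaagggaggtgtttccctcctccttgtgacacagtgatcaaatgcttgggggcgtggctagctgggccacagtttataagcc

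Ifit1 and Ifit3 each carried 2 separate matches on the opposite strand, the first beginning 104 and 156 bases before the start. In Isg15 3 matches overlapped in 1 run of GAAA repeats, with the first base of the first match 78 bases before the start. Oas1a and Oas1g each carried an overlapping pair of matches close to the start, at 20 and 18 bases before it, and their windows aligned with 212 identical bases, 32 mismatches and 12 gap positions (82.8% identity). The single match of Rsad2 began 120 bases before the start. A match describes the letters and not a bound site.

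**Figure D1:**
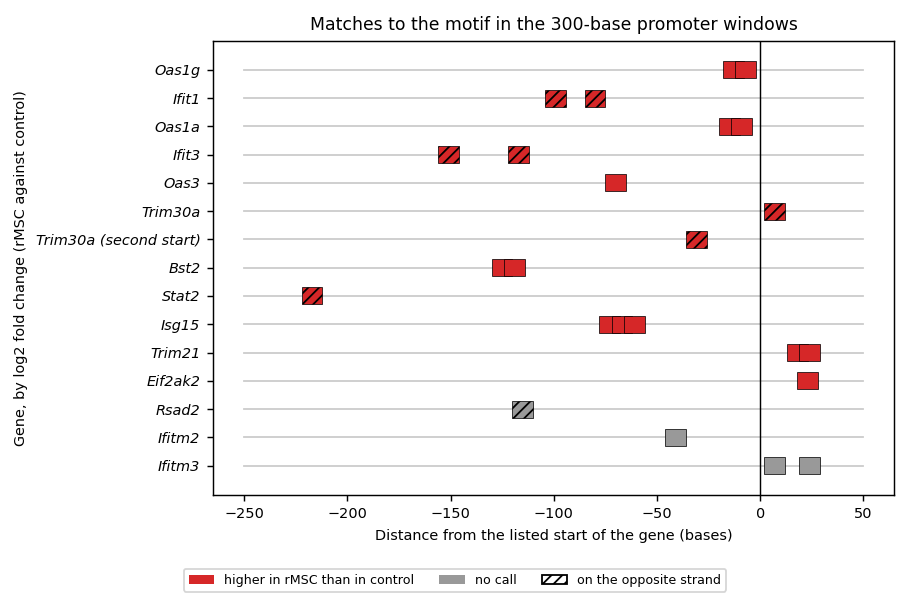
Position of each match to the response element core (boxes) in the promoter windows of the 14 genes that hold one, on an axis of distance from the listed start in bases, with genes ordered by log2 fold change of rMSC against control. Trim30a has 2 listed starts. Red boxes mark genes higher in rMSC than in control, grey boxes genes not called, and hatching a match on the opposite strand.

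The comparison of rMSC with control asked what the 5 genes changed in cultured stroma. Of the 45 genes, 32 were higher in rMSC and 4 lower, where 24.5% of all genes tested were higher and 25.5% lower (50.1% called in all). The groups did not overlap for 34 genes with rMSC above and 8 with rMSC below (35% and 36.7% of all genes). Changes over 2-fold were called as higher for 29 genes and as lower for 2 (background 11.8% and 12.5%). The median log2 fold change was 1.35 over the 45 genes and -0.01 over all genes tested. The 3 rMSC libraries lay above all 9 other libraries in 31 of the 45 genes, as they did for 18.7% of all genes. In bulk RNA, a change in the number of expressing cells and a change in RNA per cell cannot be told apart. The summed level of the 45 genes was 4735, 4680.3 and 4529.9 CPM in control and 9879, 9873 and 9608 CPM in rMSC, so the rMSC sum lay above every control library. Few genes weigh heavily in this sum. The 3 highest in rMSC were Ifit1, Lgals3bp and Ifit3, with means of 1341, 1077 and 922 CPM, against 115, 985 and 106 CPM in control. Of the 9 genes not called, 6 were called both with these 2 groups fitted alone and with quality weights, Mx1 and Lgals3bp as higher in rMSC and Zbp1, Ifitm3, Pml and Sp100 as lower.

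**Figure D2:**
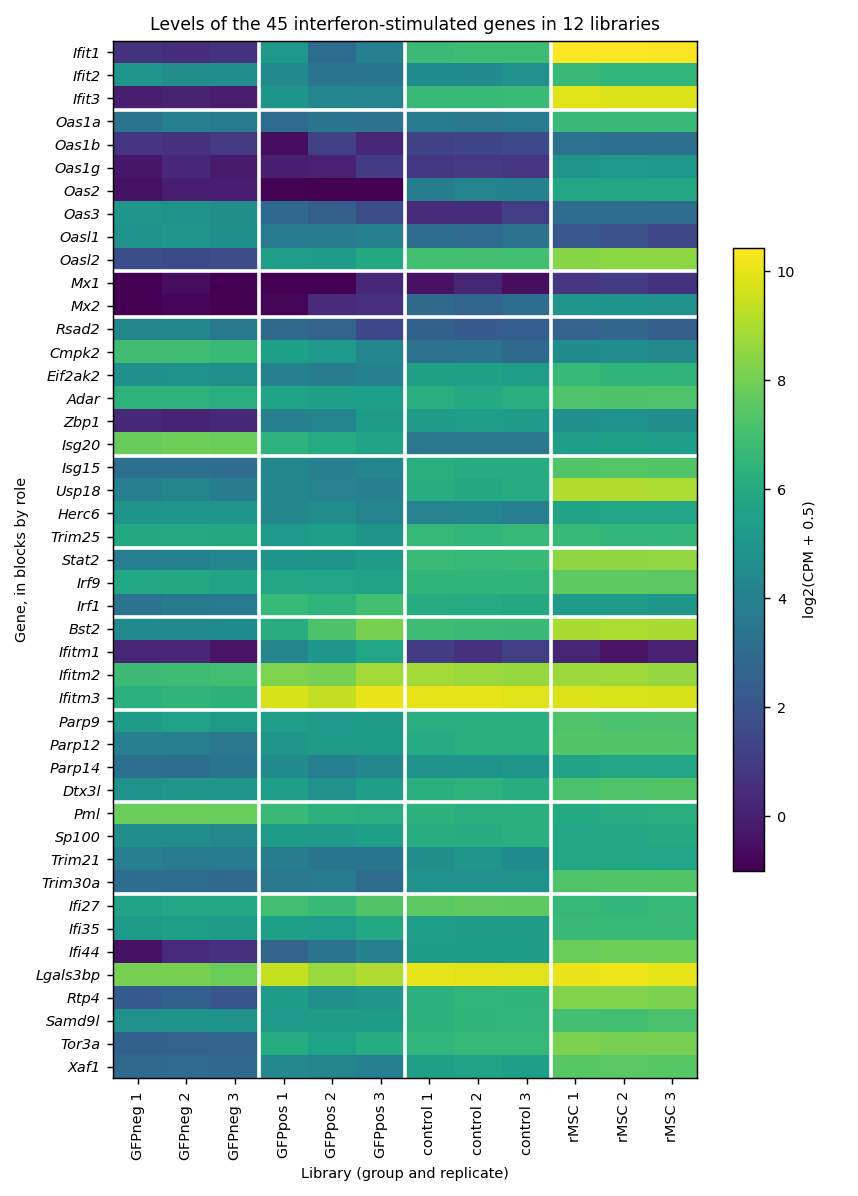
Heat map of log2(CPM + 0.5) for the 45 genes (rows, in blocks by role) in the 12 libraries (columns, 3 per group). The rMSC columns are brightest for Ifit1, Ifit3, Usp18, Stat2 and Bst2, and the GFPneg columns are brighter than all others for Isg20, Cmpk2 and Pml.

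The Ifit proteins, which bind foreign RNA and block its translation, rose in all 3 cases. Ifit1 stood at 111, 116 and 118 CPM in control and 1374, 1350.2 and 1298 CPM in rMSC, an 11.7-fold difference (log2 fold change 3.55 ± 0.41, adjusted p = 4.12e-05). Ifit3 stood at 105, 102 and 109 CPM in control and 946, 911 and 909 CPM in rMSC (log2 fold change 3.13 ± 0.18, adjusted p = 2.5e-07). All rMSC libraries lay far above all control libraries in both genes. Ifit2 had the smallest change of the family, from 23.1, 22.4 and 27.4 CPM to 107, 90.5 and 90.02 CPM (log2 fold change 1.98 ± 0.25, adjusted p = 8.49e-05). Per kb of exon, Ifit3 and Ifit1 reached 528 and 505 CPM per kb in rMSC, below Ifitm3 at 1292, Ifitm2 at 629 and Bst2 at 559.6 CPM per kb. Ifit3 shares 18.5% of its 150-base sequences with the near copy Ifit3b, so its counts are uncertain to that extent.

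The oligoadenylate synthetases make the second messenger that activates RNase L, and 6 of the 7 family members were higher in rMSC. Oas1g had the largest fold of all 45 genes, from 1.32, 1.35 and 1.24 CPM in control to 32.6, 34.8 and 33.8 CPM in rMSC (log2 fold change 4.69 ± 0.43, adjusted p = 7.34e-06). Oas1a stood at 12.4, 11.3 and 12.2 CPM in control and 106, 108 and 105 CPM in rMSC (log2 fold change 3.15 ± 0.15, adjusted p = 6.93e-08). These neighbours on chromosome 5 share 32.4% of the 150-base sequences of Oas1a and 24.1% of those of Oas1g, so the split of reads between them is uncertain, while both were higher in every rMSC library. Oas3 moved from 0.879, 0.892 and 1.70 CPM to 8.07, 8.33 and 8.04 CPM (log2 fold change 2.82 ± 0.35, adjusted p = 6.44e-05). Oas1b, whose C57BL/6 allele is truncated, Oas2 and Oasl2 also rose, by 1.48 to 2.04 on the log2 scale. The call of Oas1b was lost without control replicate 1 (adjusted p = 0.0538).

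Oasl1, an OAS-like protein that limits translation of Irf7 RNA in mice, was the exception of the family. It stood at 8.19, 7.49 and 9.70 CPM in control and 3.85, 3.10 and 2.20 CPM in rMSC (log2 fold change -1.47 ± 0.21, adjusted p = 0.000158). All 3 rMSC libraries lay below all 3 control libraries, and below all 9 other libraries of the study.

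The Mx proteins are GTPases that block virus replication, and their C57BL/6 alleles carry defects. Mx2 stood at 7.22, 6.18 and 8.22 CPM in control and 30.6, 27.6 and 26.8 CPM in rMSC (log2 fold change 1.97 ± 0.61, adjusted p = 0.0196). The groups stood well apart, but the call was lost without any 1 of the 6 libraries compared (adjusted p 0.0588 to 0.0801). The call of Mx2 was also lost when tested against 1.5-fold (adjusted p = 0.055). It was kept with the 2 groups fitted alone and with quality weights. Mx1 had 18, 43 and 12 counts in control and 76, 92 and 78 counts in rMSC, without overlap, and was not called (log2 fold change 1.86 ± 1.62, adjusted p = 0.372). With the 2 groups fitted alone it was called as higher (adjusted p = 0.00199), as it was with quality weights (0.00144).

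Of 6 effectors that act on nucleic acids or their building blocks, 4 rose and none fell. Isg20, an exonuclease of single-stranded RNA, stood at 11.1, 11.4 and 11.4 CPM in control and 40.4, 43.9 and 40.9 CPM in rMSC (log2 fold change 1.89 ± 0.14, adjusted p = 1.94e-06). Cmpk2, a mitochondrial nucleotide kinase, moved from 9.15, 9.55 and 7.33 CPM to 22.7, 23.7 and 20.2 CPM (log2 fold change 1.35 ± 0.26, adjusted p = 0.00131). In both genes the rMSC libraries lay above control but below the GFPneg libraries. Adar, which edits adenosine to inosine in double-stranded RNA, rose from 72.1, 63.4 and 71.3 CPM to 157, 149 and 156 CPM (log2 fold change 1.16 ± 0.08, adjusted p = 8.07e-07). Eif2ak2, which encodes the translation-blocking kinase PKR, rose from 46.1, 46.5 and 40.6 CPM to 99.3, 87.8 and 85.98 CPM (log2 fold change 1.04 ± 0.09, adjusted p = 3.55e-06).

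Rsad2, which encodes viperin, lies 12752 bases from Cmpk2 on chromosome 12, start to start, and was not called. It stood at 5.38, 4.56 and 4.83 CPM in control and 5.504, 6.43 and 5.06 CPM in rMSC, and the groups overlapped (log2 fold change 0.20 ± 0.35, adjusted p = 0.674). Zbp1, a sensor of Z-form nucleic acid, stood at 38.8, 40.6 and 38.4 CPM in control and 26.0, 28.8 and 24.8 CPM in rMSC (log2 fold change -0.57 ± 0.27, adjusted p = 0.102). All its rMSC libraries were below control, and it was called as lower without GFPpos replicate 1 (adjusted p = 0.049) or 3 (0.000518), which enter this comparison through the shared estimate of the spread.

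**Figure D3:**
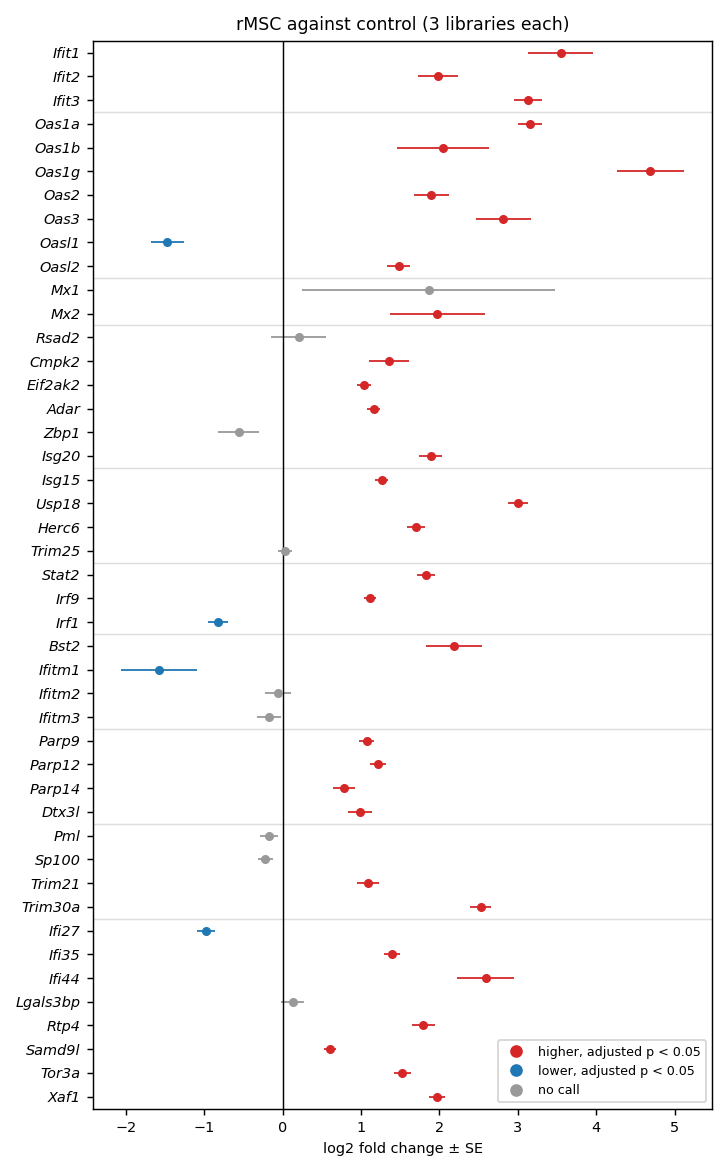
Log2 fold change of rMSC against control with SE (bars) for the 45 genes, in blocks by role. Red points mark the 32 genes higher in rMSC, blue points the 4 lower (Oasl1, Irf1, Ifitm1 and Ifi27) and grey points the 9 not called.

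The ISG15 system attaches a ubiquitin-like protein to other proteins, and 3 of its 4 members rose. Usp18, which removes ISG15 and also blocks signalling at IFNAR2, stood at 68.5, 61.5 and 67.5 CPM in control and 531, 534 and 518 CPM in rMSC (log2 fold change 3.00 ± 0.13, adjusted p = 4.05e-08). Isg15 stood at 70.2, 67.1 and 66.5 CPM in control and 161, 168 and 159.9 CPM in rMSC (log2 fold change 1.26 ± 0.08, adjusted p = 6.43e-07). The remover thus had the larger fold, 8.01 against 2.402, and the groups did not overlap in either gene. Herc6, the main ISG15 ligase of mice, rose from 16.5, 17.4 and 14.5 CPM to 50.5, 52.8 and 54.4 CPM (log2 fold change 1.70 ± 0.12, adjusted p = 8.79e-07). Trim25, a ubiquitin and ISG15 ligase, stood at 95.8, 89.9 and 96.1 CPM and 99.2, 93.1 and 94.6 CPM and was not called (log2 fold change 0.03 ± 0.09, adjusted p = 0.853).

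The transcription factors parted. Stat2 stood at 109, 99.7 and 106 CPM in control and 372, 366 and 379.7 CPM in rMSC (log2 fold change 1.83 ± 0.11, adjusted p = 3.75e-07). Irf9, its partner in ISGF3, rose from 88.5, 89.6 and 86.4 CPM to 194, 193 and 184 CPM (log2 fold change 1.11 ± 0.08, adjusted p = 8.21e-07). Irf1, which is also driven by interferon-gamma and NF-kappaB, was lower, at 67.8, 64.2 and 61.3 CPM in control and 38.0, 37.7 and 33.0 CPM in rMSC (log2 fold change -0.83 ± 0.13, adjusted p = 0.000368). The groups did not overlap in any of these 3 genes.

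The membrane restriction factors did not move as a group. Bst2 encodes tetherin, which holds budding virus at the cell surface, and stood at 116, 110.2 and 107 CPM in control and 499, 518 and 498 CPM in rMSC (log2 fold change 2.19 ± 0.36, adjusted p = 0.000477). Ifitm1, a protein that hinders virus entry, was lower, at 1.53, 1.06 and 1.70 CPM in control and 0.621, 0.266 and 0.550 CPM in rMSC (log2 fold change -1.58 ± 0.48, adjusted p = 0.0191). These are 74 to 115 counts per control library and 17 to 39 per rMSC library, and the call was lost without control replicate 1 (adjusted p = 0.0501), control replicate 3 (0.0594) or rMSC replicate 2 (0.0737). Ifitm3 and Ifitm2, the most abundant members per kb of exon in both cultures, were not called (log2 fold change -0.18 ± 0.15 and -0.06 ± 0.16). Both carry the promoter motif, and 40.9% of the exon length of Ifitm2 overlaps another gene.

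All 4 genes of the ADP-ribosylation group rose, each by a small fold. Parp12 moved from 65.3, 70.6 and 72.0 CPM to 165, 158 and 159.7 CPM (log2 fold change 1.22 ± 0.11, adjusted p = 4.59e-06). Parp9 moved from 70.3, 71.7 and 71.7 CPM to 155, 142 and 151 CPM (log2 fold change 1.07 ± 0.10, adjusted p = 7.12e-06). Its binding partner Dtx3l, a ubiquitin ligase, lies on the other strand and overlaps Parp9, with the starts 681 bases apart. Dtx3l moved from 76.7, 83.5 and 68.8 CPM to 141, 152 and 161 CPM (log2 fold change 0.99 ± 0.15, adjusted p = 0.000291). The partners thus changed by 2.10-fold and 1.98-fold. Their exons overlap over 9.4% of the exon length of Parp9 and 8% of that of Dtx3l, and the libraries do not mark the strand. Parp14 moved from 29.1, 27.7 and 31.6 CPM to 47.6, 51.9 and 52.2 CPM (log2 fold change 0.78 ± 0.14, adjusted p = 0.00104).

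Of the nuclear body and TRIM proteins, Trim30a and Trim21 rose, while Pml and Sp100 were not called. Trim30a, a mouse regulator of inflammatory signalling, stood at 26.9, 26.9 and 28.4 CPM in control and 154, 159.6 and 159 CPM in rMSC (log2 fold change 2.52 ± 0.14, adjusted p = 1.55e-07). Trim21, a cytosolic antibody receptor, stood at 24.2, 30.9 and 23.1 CPM in control and 55.7, 57.7 and 52.9 CPM in rMSC (log2 fold change 1.09 ± 0.14, adjusted p = 7.65e-05). Pml and Sp100, scaffold and component of nuclear bodies, had log2 fold changes of -0.18 ± 0.12 and -0.22 ± 0.09, with all rMSC libraries below all control libraries. Pml was called as lower without GFPpos replicate 1 (adjusted p = 0.0345) and Sp100 without GFPpos replicate 3 (0.021).

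Of the 8 other induced genes, 6 rose and 1 fell. Ifi44 stood at 39.7, 38.6 and 39.8 CPM in control and 233, 239.9 and 238 CPM in rMSC (log2 fold change 2.59 ± 0.36, adjusted p = 0.000164). Xaf1, a pro-apoptotic protein, stood at 44.4, 48.5 and 43.4 CPM in control and 177, 180.3 and 177 CPM in rMSC (log2 fold change 1.97 ± 0.10, adjusted p = 1.27e-07). Rtp4, a chaperone of membrane receptors, stood at 80.2, 90.4 and 89.5 CPM in control and 305, 308 and 289.5 CPM in rMSC (log2 fold change 1.80 ± 0.15, adjusted p = 3.72e-06). Tor3a, Ifi35 and Samd9l rose by 1.53, 1.39 and 0.60 on the log2 scale. Ifi27, a small membrane protein, was lower, at 189, 198 and 189.5 CPM in control and 96.3, 95.3 and 101 CPM in rMSC without overlap (log2 fold change -0.98 ± 0.12, adjusted p = 5.01e-05). Lgals3bp, a secreted glycoprotein, was not called at 985 ± 28.9 CPM in control and 1077 ± 41.6 CPM in rMSC.

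**Figure D4:**
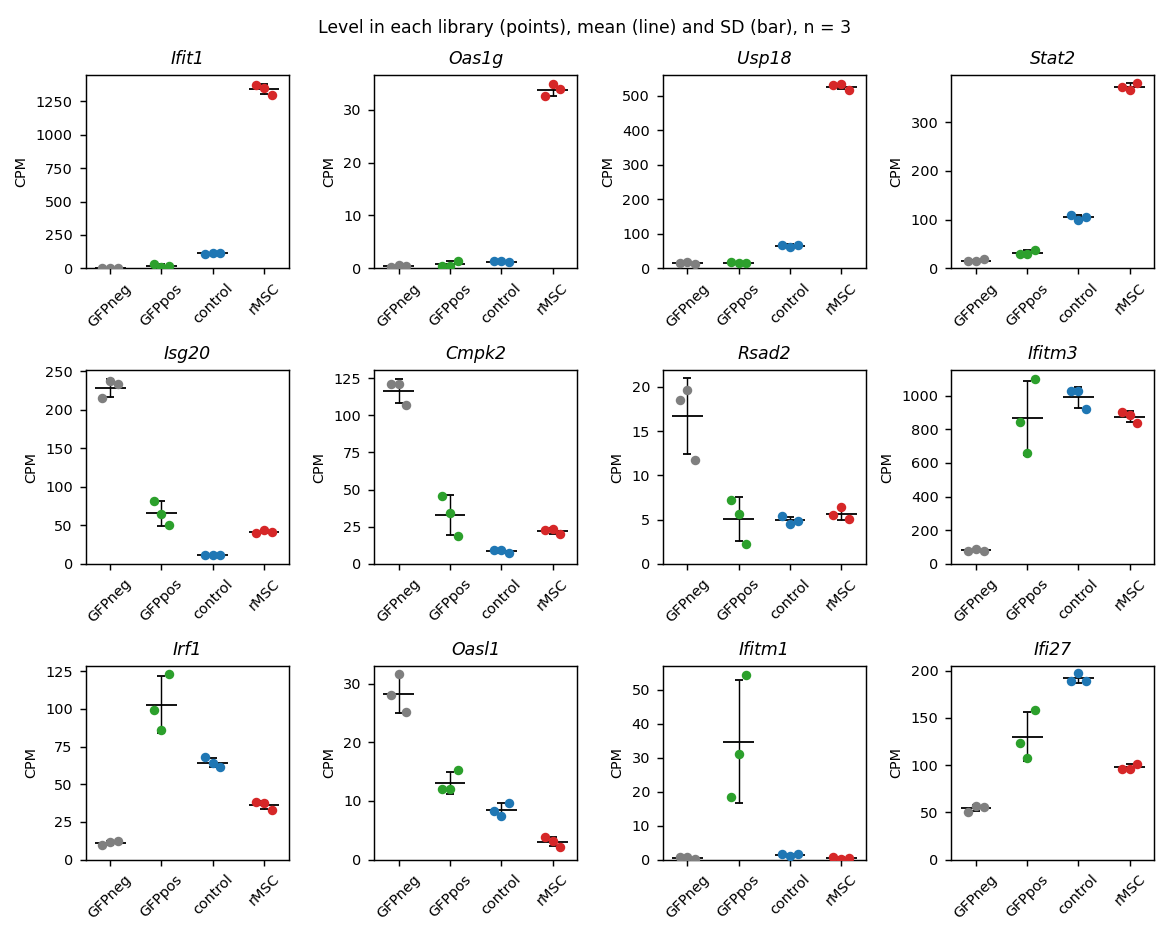
CPM in each library (points) with mean (line) and SD (bar) for 12 of the genes in the 4 groups, on linear axes that start at 0. Ifit1, Oas1g, Usp18 and Stat2 are highest in rMSC, Isg20, Cmpk2, Rsad2 and Oasl1 in GFPneg, Irf1 and Ifitm1 in GFPpos and Ifi27 in control, while Ifitm3 overlaps between GFPpos and both cultures.

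Set against the promoter motif, 11 of the 14 genes that hold it were higher in rMSC and none lower, with a median log2 fold change of 2.01. Ifitm2, Ifitm3 and Rsad2 were those not called. Of the 20 genes whose windows lack it, 13 were higher and 3 lower, with a median of 1.13. The 11 genes with no listed window (Mx1, Mx2, Tor3a, Parp9, Zbp1, Parp14, Ifi27, Oas2, Usp18, Oas1b and Rtp4) had 8 higher and 1 lower. The difference between these groups of genes was not tested. Over all genes tested, 24.5% were higher and 25.5% lower, and calls among all genes that hold the motif were not counted.

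Several markers of blood cells were near absent from both cultures, while the sums over the lists differed between control and rMSC. Of 10 pan-haematopoietic markers, Ptprc, Rac2, Vav1 and Spi1 were at or under 3 counts in every control and rMSC library, and Cd52 and Was in every rMSC library. Their sum was 39.7 to 40.6 CPM in control and 325 to 332 CPM in rMSC, of which Arhgdib alone held 39.1 and 323 CPM. In the fresh groups the same sum was 298 to 393 CPM (GFPneg) and 356 to 654 CPM (GFPpos). The sum over 9 monocyte and macrophage markers was 9.51 to 12.4 CPM in control and 63.4 to 65.9 CPM in rMSC, with Lyz2 at 50.4 CPM in rMSC and Fcgr1, Ccr2, Cx3cr1 and C1qa at or under 3 counts. Erythroid markers summed to 33.0 to 38.3 CPM in control, mostly the widely expressed Tfrc, and to 38.2 to 42.0 CPM in rMSC, of which Alas2 held 32.6 CPM. Granulocyte markers summed to 8.12 to 8.98 CPM in control and 0.996 to 1.23 CPM in rMSC, and endothelial markers to 184 to 191 CPM and 66.0 to 76.8 CPM. Siglech, which defines plasmacytoid dendritic cells, was at or under 3 counts in all 12 libraries. The other markers of that list were not all absent. Per library, the list of 4 genes reached 284 to 298 CPM (control) and 395 to 403 CPM (rMSC). Nearly all of this was Tcf4, whose group means were 292 and 399 CPM. Fresh libraries had lower list sums, 24.5 to 28.4 CPM (GFPneg) and 56.0 to 86.9 CPM (GFPpos), with Tcf4 means of 26.3 and 70.7 CPM. The part of these markers in the differences above was not tested.

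The upstream pathway moved in both directions between rMSC and control. Of 12 signalling components, 11 could be tested, and 4 were lower in rMSC, beside 25.5% of all genes. Socs3, a feedback inhibitor of JAK-STAT signalling, stood at 226, 236 and 219 CPM in control and 15.4, 17.6 and 15.4 CPM in rMSC (log2 fold change -3.81 ± 0.78, adjusted p = 0.00204). Ptpn6, a phosphatase, was low in both, at 0.533, 0.345 and 0.597 CPM and 1.44, 1.27 and 1.11 CPM (log2 fold change 1.37 ± 0.33, adjusted p = 0.00558). The other components that were lower were the receptor chains Ifnar1 (-0.76 ± 0.10) and Ifnar2 (-1.15 ± 0.11) and the kinase Jak1 (-1.03 ± 0.07), named after their values were seen, and Tyk2 was higher (0.53 ± 0.12). Ifnb1, which encodes interferon-beta, had 0, 16 and 3 counts in the rMSC libraries and 0 in all others, too few for testing. It was seen in only 2 of 3 rMSC libraries, and a count of 0 allows up to 3 counts.

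Of 11 sensors and adaptors, 5 were higher in rMSC and 2 lower, beside 24.5% and 25.5% of all genes. Dhx58, which encodes the RIG-I-like protein LGP2, stood at 25.8, 26.0 and 25.6 CPM in control and 93.7, 88.1 and 92.7 CPM in rMSC (log2 fold change 1.83 ± 0.07, adjusted p = 1.79e-08). Tmem173, which encodes the DNA-pathway adaptor STING, was lower, at 65.5, 64.0 and 60.9 CPM in control and 18.2, 15.8 and 15.4 CPM in rMSC (log2 fold change -1.95 ± 0.29, adjusted p = 0.000238). Mb21d1, which encodes the DNA sensor cGAS, was lower too, at 3.22, 3.45 and 3.21 CPM and 0.996, 1.501 and 0.987 CPM (log2 fold change -1.503 ± 0.39, adjusted p = 0.008). The others that were higher, named after their values were seen, were the RNA receptors Tlr3 (1.08 ± 0.30) and Ddx58 (0.98 ± 0.08), the RIG-I adaptor Mavs (0.71 ± 0.12) and the kinase Tbk1 (0.40 ± 0.06).

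A further 20 interferon-stimulated genes outside the 45 were listed, of which 19 could be tested, and 10 were higher and 4 lower in rMSC, beside 24.5% and 25.5% of all genes. Phf11d stood at 49.4, 50.04 and 54.2 CPM in control and 199, 204 and 187 CPM in rMSC (log2 fold change 1.94 ± 0.23, adjusted p = 4.68e-05). Ddx60, an RNA helicase, stood at 10.2, 11.5 and 11.5 CPM in control and 33.5, 33.5 and 44.8 CPM in rMSC (log2 fold change 1.75 ± 0.29, adjusted p = 0.000549). Psmb8, an immunoproteasome subunit, was lower, at 44.6, 43.7 and 40.2 CPM and 11.2, 13.2 and 10.9 CPM (log2 fold change -1.86 ± 0.15, adjusted p = 2.39e-06). The others that were lower were Psmb9, the chemokine Cxcl10 and the GTPase Ifi47 (log2 fold changes -1.11 ± 0.18, -1.71 ± 0.37 and -0.70 ± 0.10), also named after their values were seen.

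Control was set against GFPpos to see how transduced culture differs from fresh cells of the same sort. Of the 45 genes, 29 were higher in control and 8 lower, where 32.5% of all genes tested were higher and 35.9% lower (68.3% called in all). All control libraries lay above all GFPpos libraries for 30 genes and below them for 7 (35.7% of all genes in either direction). Changes over 2-fold were called as higher for 17 genes and as lower for 4 (background 17.3% and 22.5%), and the median log2 fold change was 0.80 over the 45 genes and -0.04 over all. Culture, time and the control vector cannot be told apart in this comparison. Markers of other cells moved with it as well. Per GFPpos library, erythroid markers summed to 996 to 1826 CPM (33.0 to 38.3 CPM in control) and granulocyte markers to 906 to 4253 CPM (8.12 to 8.98 in control). Megakaryocyte markers summed to 259 to 3941 CPM (42.8 to 47.0 in control). Monocyte and macrophage markers summed to 189 to 524 CPM (9.51 to 12.4 in control) and pan-haematopoietic markers to 356 to 654 CPM (39.7 to 40.6 in control). Their part in the differences was not tested.

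Oas2, which is part of the same chromosome 5 cluster as Oas1a, was nearly absent from GFPpos, with 2, 0 and 0 counts. In control it had 1001, 1148 and 1055 counts, which gives a ratio of 1455 after scaling to library size (95% exact counting interval 402 to 12018). In rMSC it had 3255, 3650 and 4207 counts, a ratio to GFPpos of 5445 (1507 to 44966). These intervals cover counting error only. Oas3, its neighbour, was lower in control, at 7.05, 5.03 and 2.80 CPM in GFPpos and 0.879, 0.892 and 1.70 CPM in control (log2 fold change -2.10 ± 0.34, adjusted p = 0.000261).

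Ifit1 stood at 33.9, 7.73 and 15.3 CPM in GFPpos, below all control libraries (log2 fold change 2.59 ± 0.40, adjusted p = 0.000174). GFPpos replicate 1 was the highest of the 3, and without it the log2 fold change was 3.32. Ifit3 stood at 29.2, 18.6 and 16.8 CPM in GFPpos (log2 fold change 2.29 ± 0.18, adjusted p = 9.34e-07). Mx2 stood at 0.0742, 0.820 and 0.938 CPM in GFPpos (log2 fold change 3.60 ± 0.68, adjusted p = 0.000773), which is 6, 45 and 53 counts. In Ifit3 and Mx2, too, every control library lay above every GFPpos library.

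In the ISG15 system, Usp18 stood at 19.3, 16.4 and 14.4 CPM and Isg15 at 19.4, 15.4 and 18.7 CPM in GFPpos, both below all control libraries (log2 fold change 1.98 ± 0.12 and 1.93 ± 0.09). Stat2 stood at 29.5, 29.4 and 37.8 CPM in GFPpos and also rose in control (log2 fold change 1.70 ± 0.11, adjusted p = 3.14e-07). Irf9 stood at 56.6, 52.0 and 49.1 CPM in GFPpos (log2 fold change 0.75 ± 0.08, adjusted p = 7.21e-06). Irf1 fell in control, from 99.3, 86.2 and 123 CPM in GFPpos (log2 fold change -0.68 ± 0.13, adjusted p = 0.000863).

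The nucleic acid effectors parted. Isg20 stood at 82.0, 64.7 and 50.1 CPM in GFPpos, and fell by 2.54 on the log2 scale in control (adjusted p = 1.38e-07). Cmpk2 stood at 45.7, 34.4 and 18.5 CPM in GFPpos and fell by 1.92 on the log2 scale (adjusted p = 7.14e-05). The groups did not overlap in either gene. Eif2ak2, Adar and Zbp1 were higher in control by 1.56, 0.57 and 0.76 on the log2 scale, and the call of Zbp1 was lost without any 1 of 5 libraries (GFPpos replicates 1 and 2, control replicates 1 to 3, adjusted p 0.0515 to 0.0881).

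Ifitm1 had the largest fall in culture of the 45 genes, from 18.5, 31.2 and 54.4 CPM in GFPpos to the 1.43 ± 0.330 CPM of control (log2 fold change -4.60 ± 0.50, adjusted p = 1.24e-05). Bst2 stood at 69.2, 149.5 and 269.8 CPM in GFPpos and was not called (log2 fold change -0.55 ± 0.34, adjusted p = 0.177). GFPpos replicate 1 was its lowest library, and without it Bst2 was called as lower in control (-0.91, adjusted p = 0.00137). The megakaryocyte markers were lowest in the same library, at 259 CPM against 3941 and 3329 CPM, and their part in this was not tested.

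Of the remaining groups, all 4 ADP-ribosylation genes were higher in control, with Dtx3l at 40.2, 26.6 and 42.4 CPM (1.07 ± 0.15) and Parp12 at 33.1, 38.6 and 36.7 CPM in GFPpos (0.94 ± 0.10). Trim30a stood at 11.1, 12.01 and 7.80 CPM and Trim21 at 13.6, 10.4 and 10.4 CPM in GFPpos, and both were higher in control (1.41 ± 0.13 and 1.18 ± 0.14). Of the 8 other induced genes, 7 were higher in control. Ifi44 stood at 6.11, 9.99 and 15.9 CPM in GFPpos (1.89 ± 0.36) and Rtp4 at 38.5, 25.9 and 30.6 CPM (1.45 ± 0.15). Of these 6 genes, Ifi44 had the highest adjusted p (0.000808). Calls of Ifit2, Oas1a, Oasl1, Herc6 and Ifi35 in this comparison were also lost without 1 library or another, with adjusted p up to 0.129.

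**Figure D5:**
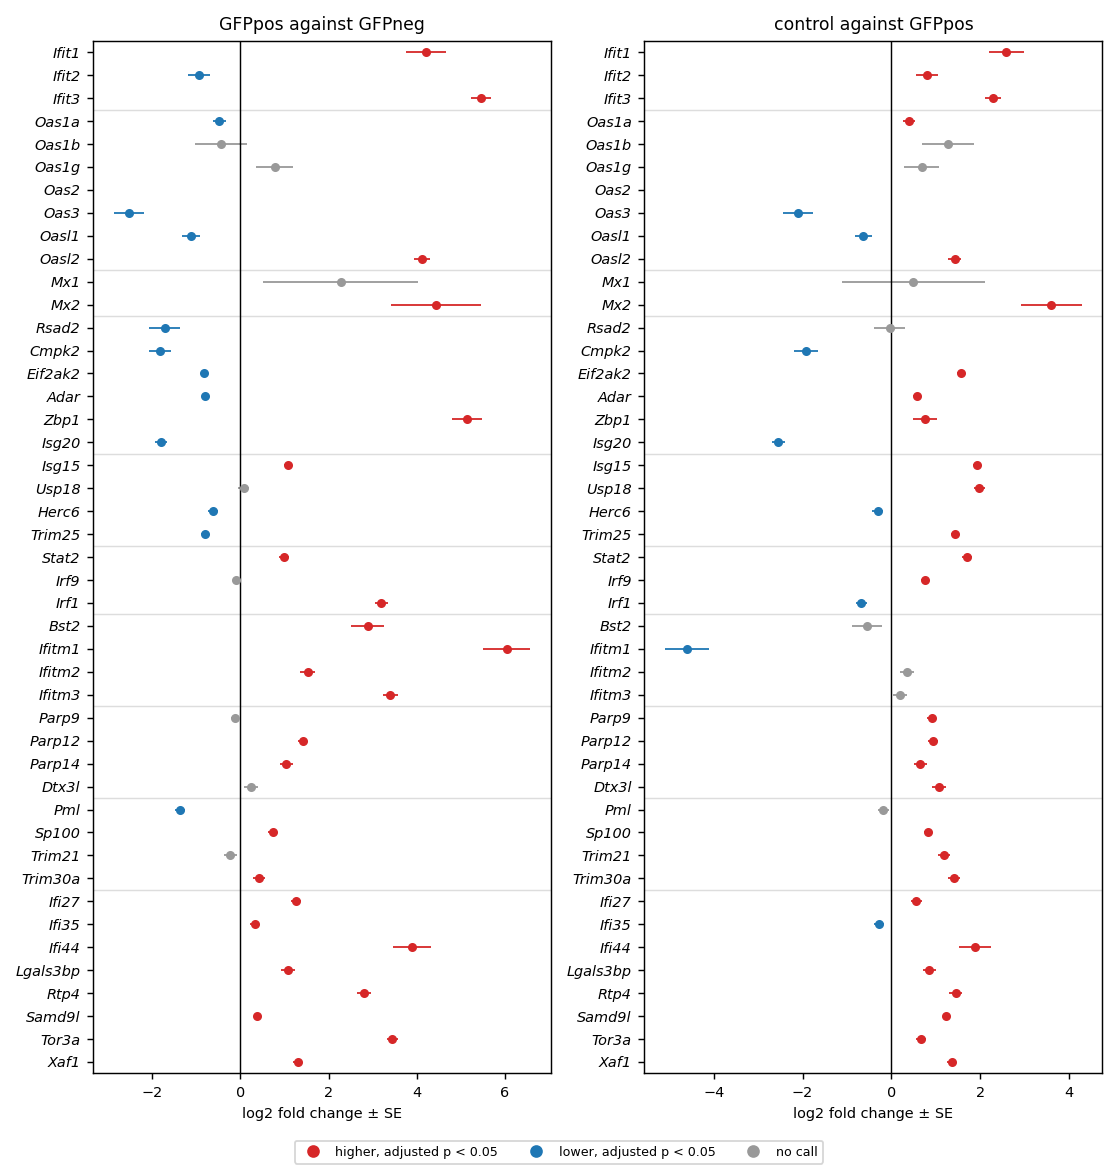
Log2 fold change with SE (bars) of GFPpos against GFPneg (left) and of control against GFPpos (right), in the same blocks by role. Oas2 is left out of both panels because GFPpos had 2, 0 and 0 counts of it. Red points mark genes higher in the first group, blue points genes lower and grey points genes not called.

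The comparison of rMSC with GFPpos asked how near the transduced stroma came to the fresh cells, and it shares libraries with both comparisons above. Of the 45 genes, 32 were higher in rMSC and 6 lower, where 33.4% of all genes tested were higher and 38.2% lower (71.6% called in all). All rMSC libraries lay above all GFPpos libraries for 34 genes and below them for 6 (36.1% and 37.9% of all genes). Changes over 2-fold were called as higher for 30 genes and as lower for 3 (background 19.8% and 26%), and the median log2 fold change was 1.98 over the 45 genes and -0.08 over all. Erythroid markers summed to 38.2 to 42.0 CPM per rMSC library, granulocyte markers to 0.996 to 1.23 CPM and megakaryocyte markers to 13.2 to 15.02 CPM. The sums per GFPpos library were 996 to 1826, 906 to 4253 and 259 to 3941 CPM. Monocyte and macrophage markers summed to 63.4 to 65.9 CPM in rMSC and 189 to 524 CPM in GFPpos. Pan-haematopoietic markers summed to 325 to 332 and 356 to 654 CPM. The part of all these markers in the differences was not tested. In GFPpos, Oas1g stood at 0.483, 0.529 and 1.45 CPM, Eif2ak2 at 15.6, 13.8 and 15.7 CPM, Adar at 50.2, 45.4 and 43.5 CPM and Xaf1 at 20.5, 17.7 and 14.9 CPM, each below all rMSC libraries. For Ifit1 the log2 fold change was 6.14 ± 0.47 (6.86 without GFPpos replicate 1), for Ifit3 5.42 ± 0.20, for Oas1g 5.37 ± 0.45 (6.06 without GFPpos replicate 3) and for Mx2 5.57 ± 0.73. Usp18 differed by 4.98 ± 0.14, Isg15 by 3.19 ± 0.09, Stat2 by 3.53 ± 0.12 and Irf9 by 1.86 ± 0.08. Also higher in rMSC were Eif2ak2 (2.60 ± 0.09), Adar (1.73 ± 0.08), Parp12 (2.16 ± 0.11), Dtx3l (2.05 ± 0.16) and Trim21 (2.27 ± 0.14). The same held for Trim30a (3.94 ± 0.14), Ifi44 (4.48 ± 0.40) and Xaf1 (3.33 ± 0.11). The highest adjusted p of these 16 genes was that of Mx2 (4.58e-05). Bst2 was higher in rMSC (log2 fold change 1.63 ± 0.35, adjusted p = 0.00163).

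The 6 genes lower in rMSC than in GFPpos were Ifitm1, Oasl1, Irf1, Isg20, Ifi27 and Pml. Ifitm1 differed most, with 0.479 ± 0.188 CPM in rMSC against 34.7 ± 18.2 CPM in GFPpos (log2 fold change -6.17 ± 0.55, adjusted p = 1.95e-06). Oasl1 fell by 2.10, Irf1 by 1.505 and Isg20 by 0.65 on the log2 scale. Ifi27 and Pml fell by 0.41 and 0.35, and the call of Pml was lost without rMSC replicate 1 (adjusted p = 0.0791). Rsad2, Cmpk2, Oas3, Zbp1, Mx1, Ifitm2 and Ifitm3 were not called. Of these, Rsad2 stood at 5.06 ± 2.504 CPM in GFPpos and 5.66 ± 0.695 CPM in rMSC (log2 fold change 0.16 ± 0.35, adjusted p = 0.696), and Cmpk2 at 32.9 ± 13.7 and 22.2 ± 1.84 CPM (log2 fold change -0.57 ± 0.25, adjusted p = 0.0641). Cmpk2 was called as lower without GFPpos replicate 3 (-0.85, adjusted p = 0.000359), and also with DESeq2 (adjusted p = 0.0428), upper-quartile scaling (0.0458) and quality weights (0.0163). Without GFPpos replicate 3 Mx1, Zbp1 and Ifitm2 were called as higher. Oas3 was called as higher without GFPpos replicate 1 or control replicate 3 (adjusted p = 0.0112 and 0.0416), and with DESeq2 (0.044). Mx1, Zbp1 and Ifitm2 were called as higher with quality weights as well. The call of Pml was also lost with the 2 groups fitted alone (adjusted p = 0.0566).

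The comparison of GFPpos with GFPneg set the reporter-positive stroma against marrow cells in which the reporter was off. Of the 45 genes, 24 were higher in GFPpos and 13 lower, where 40.5% of all genes tested were higher and 36.5% lower (77% called in all). All GFPpos libraries lay above all GFPneg libraries for 23 genes and below them for 12 (37.5% and 37.8% of all genes). Changes over 2-fold were called as higher for 19 genes and as lower for 7 (background 33.8% and 17.9%), and the median log2 fold change was 0.73 over the 45 genes and 0.08 over all. The summed level of the 45 genes was 1744, 1829 and 1686 CPM in GFPneg and 3190, 2621 and 3658 CPM in GFPpos. Most of this difference lay in the 3 genes highest in GFPpos, while 13 genes were lower there. Ifitm3, Lgals3bp and Ifitm2 had means of 868, 545 and 338 CPM in GFPpos and 82.1, 257 and 117 CPM in GFPneg. The erythroid markers moved the other way, with 9 of 9 detected in both groups and sums of 6209 to 6648 CPM per GFPneg library and 996 to 1826 CPM per GFPpos library. Granulocyte markers summed to 808 to 1454 CPM per GFPneg library and 906 to 4253 CPM per GFPpos library, and megakaryocyte markers to 58.9 to 260.1 CPM and 259 to 3941 CPM. Monocyte and macrophage markers summed to 106 to 159 CPM per GFPneg library and 189 to 524 CPM per GFPpos library. Pan-haematopoietic markers summed to 298 to 393 CPM and 356 to 654 CPM. The part of these markers in the differences was not tested.

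Every role list held at least 1 higher gene, where 40.5% of all genes tested were higher. The Ifit, OAS, nucleic acid effector, ISG15 and nuclear body lists also held lower genes. Ifit3 stood at 0.458, 0.561 and 0.448 CPM in GFPneg, below all GFPpos libraries (log2 fold change 5.46 ± 0.22, adjusted p = 3.87e-09). Ifit1 stood at 1.09, 0.907 and 1.07 CPM in GFPneg (log2 fold change 4.22 ± 0.45, adjusted p = 6.89e-06, 3.49 without GFPpos replicate 1). Ifit2, by contrast, was higher in GFPneg, at 31.2, 24.8 and 24.1 CPM against 21.0, 10.1 and 10.5 CPM (log2 fold change -0.94 ± 0.25, adjusted p = 0.00527). The call of Ifit2 was lost with the 2 groups fitted alone (-0.72, adjusted p = 0.0807) and when tested against 1.5-fold (adjusted p = 0.0512). The 3 neighbours of chromosome 19 thus did not share a direction between the fresh groups, while all 3 rose in rMSC against control.

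Oasl2 stood at 2.85, 2.49 and 2.75 CPM in GFPneg and 41.4, 37.8 and 61.6 CPM in GFPpos (log2 fold change 4.12 ± 0.17, adjusted p = 4.77e-09). Oas2 had 15, 38 and 34 counts in GFPneg and 2, 0 and 0 in GFPpos, a ratio of GFPneg to GFPpos of 36.0 (95% exact counting interval 9.68 to 302). Of the 7 OAS genes, 4 were lower in GFPpos (Oas2, Oas3, Oasl1 and Oas1a) and only Oasl2 was higher. For Oas1a the groups overlapped, and its call was lost without GFPneg replicate 2 (adjusted p = 0.0519). It was also lost with the 2 groups fitted alone (-0.24, adjusted p = 0.341) and with quality weights (adjusted p = 0.145). Oas1g, not called at 0.78 ± 0.42, was called as higher in GFPpos without GFPneg replicate 2 (1.23, adjusted p = 0.0301), without GFPpos replicate 1 (1.06, adjusted p = 0.0387) and with DESeq2 (0.92, adjusted p = 0.0443). Oas1b, not called at -0.45 ± 0.59, was called as lower without GFPpos replicate 2 (-1.52, adjusted p = 0.0136). Mx2 had 0, 6 and 0 counts in GFPneg (log2 fold change 4.44 ± 1.01, adjusted p = 0.00203), and its fitted change rests on these 6 counts of GFPneg replicate 2, without which it was 8.33.

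The nucleic acid effectors were mostly lower in GFPpos, 5 of 6. Cmpk2 stood at 121, 121 and 107 CPM in GFPneg, above every other library of the study (log2 fold change -1.82 ± 0.26, adjusted p = 6e-05). Isg20 and Rsad2 were also highest in GFPneg, at 216, 237 and 233 and 18.6, 19.7 and 11.8 CPM. Zbp1 was the exception, at 0.694, 0.573 and 0.696 CPM in GFPneg and 15.3, 17.3 and 36.7 CPM in GFPpos (log2 fold change 5.14 ± 0.33, adjusted p = 1.3e-07).

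All 4 membrane restriction factors and all 8 other induced genes were higher in GFPpos. Ifitm1 stood at 0.650, 0.668 and 0.261 CPM in GFPneg and Ifitm3 at 77.1, 89.8 and 79.4 CPM, both below all GFPpos libraries (log2 fold change 6.04 ± 0.54 and 3.40 ± 0.17). GFPpos held Ifitm3 at 843, 659 and 1101 CPM. Ifi44 stood at 0.207, 0.812 and 1.07 CPM and Tor3a at 5.20, 5.44 and 6.02 CPM in GFPneg (3.90 ± 0.44 and 3.45 ± 0.12), against 65.8, 48.7 and 67.0 CPM of Tor3a in GFPpos.

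Irf1 stood at 9.63, 11.9 and 12.1 CPM in GFPneg and rose in GFPpos (log2 fold change 3.20 ± 0.14, adjusted p = 7.45e-09). Stat2 rose from 14.5, 15.9 and 18.4 CPM in GFPneg (log2 fold change 0.98 ± 0.11, adjusted p = 1.01e-05). Isg15 stood at 8.45, 8.73 and 8.07 CPM in GFPneg and was higher in GFPpos (1.08 ± 0.09), while Trim25, at 60.3, 62.0 and 60.6 CPM in GFPneg, was lower (-0.81 ± 0.09). Parp12 and Parp14 were higher in GFPpos (1.41 ± 0.11 and 1.05 ± 0.15), the latter with an adjusted p of 5.56e-05. Pml stood at 223, 230.0 and 221 CPM in GFPneg and fell in GFPpos to 107, 79.6 and 74.0 CPM (log2 fold change -1.37 ± 0.12, adjusted p = 1.23e-06), while Sp100 was higher (0.73 ± 0.09). The call of Trim30a, also higher in GFPpos, was lost without GFPneg replicate 3 or GFPpos replicate 2 (adjusted p = 0.051 and 0.0612).

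Across the 4 groups, the order of the mean levels was GFPneg, GFPpos, control, rMSC from low to high in 19 of the 45 genes, among them Ifit1, Ifit3, Isg15, Usp18 and Stat2. How often this order holds over all genes tested was not counted, so the 19 genes have no background to be read against. Between neighbours in this order, GFPpos and GFPneg did not pass the test for Oas1g, Mx1, Usp18 and Dtx3l, control and GFPpos for Oas1g and Mx1, and rMSC and control for Mx1 and Lgals3bp. Several of these depended on 1 library: without GFPpos replicate 3, control and GFPpos passed for Oas1g (adjusted p = 0.0023) and Mx1 (0.0148), and without GFPpos replicate 2, GFPpos and GFPneg passed for Dtx3l (0.00241). With all libraries, Dtx3l also passed with DESeq2 (adjusted p = 0.0351), upper-quartile scaling (0.0443) and another scaling (0.0474). In 7 further genes, also without a background count, the fresh groups were exchanged and the cultures followed in the same order. Of these, GFPneg and GFPpos passed the test for Oas2, Eif2ak2 and Trim25, and not for Oas1b, Irf9, Parp9 and Trim21. Without GFPpos replicate 1 Trim21 passed (adjusted p = 0.0248), and without GFPpos replicate 2 Oas1b did (0.0136). rMSC and control did not pass for Trim25 (adjusted p = 0.853). Control and GFPpos did not pass for Oas1b (0.0747), except without GFPpos replicate 2 (0.00176) or with DESeq2 (0.0437). Control was not tested against GFPneg. GFPneg lay above all other libraries in 6 genes (Oas3, Oasl1, Rsad2, Cmpk2, Isg20 and Pml), as in 29.9% of all genes. GFPneg lay below all other libraries in 21 genes (27.8% of all genes). GFPpos lay above all others for Irf1 and Ifitm1 (background 9.82%), and below them for 5 genes (6.55%). Control lay above all others for Zbp1, Sp100 and Ifi27 (13.8%), and below them for Oas3, Cmpk2 and Isg20 (8.2%). Besides the 31 genes in which rMSC lay above all others, it lay below them for Oasl1 and Pml (12.8%).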

How the data were processed

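RNA of 12 libraries of 1000 to 5000 sorted cells was made into cDNA with SMART-Seq v4 and Nextera XT, which do not mark the strand, and read as 150 bp single ends, per the labels' protocols. Reads were aligned with STAR 2.4.1c and counted per gene with featureCounts 1.4.6 on mm10 by the authors, per the submitters' processing notes. How reads with several matches were counted is not given in the sources used here. The deposited values are whole-number counts per gene. In each file 27 rows whose symbols had turned into dates, holding 0.183 to 0.369% of the counts, were left out, and 24035 rows were used.

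Counts were tested with edgeR 4.0.16 in R 4.3.3 (TMM scaling, the default filter on low counts, quasi-likelihood test with 4 group means over all 12 libraries, Benjamini-Hochberg adjustment over 15163 genes), after the fit was tested on simulated data. The SE is the absolute log2 fold change divided by the square root of F. The prior count was 2, and a count of 0 allows up to 3 counts in a library. Counting intervals are exact at 95%. All 45 genes could be named; full values were given for those of each role list with the largest changes past the threshold (up to 3, and up to 2 outside the comparison of rMSC with control) and for all lower in rMSC than in control. The 45 genes and the 10 role, 4 pathway and 9 marker lists were chosen with earlier results of these data known. Alternatives were DESeq2 1.42.0, limma 3.58.1 with quality weights, other scalings and filters, the compared groups alone, a replicate block, a test against 1.5-fold and each library left out. The result of 1 listed pathway gene is not reported here.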

Additional observations from a re-analysis of the deposited data

How the results depend on the processing

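For no gene did a call turn its direction under any alternative run. The number of the 45 genes lower in rMSC than in control was 4, and 8 both with the 2 groups fitted alone and with quality weights; higher were 32, and 34 under both. Tested against 1.5-fold, 4 genes were lower in control than in GFPpos (8 without this margin) and 3 in rMSC than in GFPpos (6 without it), and 3731 instead of 7592 genes of all were called between rMSC and control and 6713 instead of 10362 between control and GFPpos. The cause of the other changes was not tested. Leaving out 1 library at a time, 30 to 32 genes were higher and 3 to 6 lower in rMSC than in control, 26 to 33 and 5 to 9 in control than in GFPpos, 32 to 35 and 5 to 7 in rMSC than in GFPpos, and 23 to 25 and 12 to 14 in GFPpos than in GFPneg. Of 36 genes called between rMSC and control, 31 kept the call under every alternative run, as did 26 of 37 between control and GFPpos, 34 of 38 between rMSC and GFPpos and 31 of 37 between GFPpos and GFPneg, while 6, 7, 5 and 4 of the genes not called gained one under at least 1. Whether replicate numbers pair the samples is not given in the labels and was not settled here. Deviations of same-numbered libraries correlated by 0.0139 to 0.0209 between rMSC and control, each best with its own number. The correlations were -0.0249 to -0.0035 between control and GFPpos and 0.00764 to 0.0110 between rMSC and GFPpos, none best with its own number. Between GFPpos and GFPneg they were 0.160, 0.151 and 0.0174, where replicates 1 and 2 correlated best with their own number. With the replicate block 36, 37, 39 and 37 of the 45 genes were called in the 4 comparisons, in the order of the text, against 36, 37, 38 and 37 without it. The gene gained was Cmpk2, lower in rMSC than in GFPpos (-0.51, adjusted p = 0.0452). Counts of Mx1, Mx2, Oas2 and Ifitm1 were low in several libraries, which limits the precision of their fold changes.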
